A study of Mus musculus with 14 samples.

Results

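The 10 genes described here encode enzymes and receptors of the eicosanoid pathway in mouse lung group 2 innate lymphoid cells (ILC2s): Alox5, Alox5ap, Ltc4s, Ptgs1, Ptgs2, Ptges, Hpgds, Ptgdr2, Cysltr1 and Ptgir. They were chosen by name as the core of leukotriene and prostaglandin synthesis and sensing, and 10 of 10 were found among the 53278 genes of both tables of each experiment, read counts and TPM (length-adjusted abundance that sums to 1e+06 per library). RNA-seq was performed on 14 libraries from 2 experiments, each library from a separate female mouse. ILC2s had been sorted from whole lung as live, lineage-, CD90.2+, CD3- cells and then placed in complete RPMI. In the stimulation experiment, cells of 4 B6 mice were left unstimulated, and cells of another 4 received 20 ng/mL of IL-33 over 24 h. The labels give no time for the unstimulated wells, the design text gives 24 h for both arms, and the same text calls these cells ex vivo, so how long they were in culture is uncertain. In the Blimp-1 experiment, cells of 3 ControlIL7RaCre mice (Control) and 3 age-matched Blimp-1IL7RaCre mice (Blimp-1-deficient) were all activated over 72 h by IL-25 and IL-33, both at 20 ng/mL. The study's methods also list IL-2 in this culture, which the labels and the design text do not. The Cre in this experiment is expressed from the IL7Ra gene, which is active across lymphoid lineages and not in ILC2s alone, and both arms carry it by name.

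Eicosanoids are signaling lipids made from arachidonic acid after phospholipases release it from membranes. Along the leukotriene branch, 5-lipoxygenase and its activating protein oxidize arachidonic acid, and leukotriene C4 synthase conjugates the product with glutathione to give the cysteinyl leukotrienes, which act on the receptor CysLT1. Along the prostaglandin branch, the cyclooxygenases make a shared intermediate that terminal synthases turn into PGE2, PGD2 or prostacyclin, each with receptors of its own. In lung ILC2s, cysteinyl leukotrienes and PGD2 are known to promote type 2 cytokine production, whereas prostacyclin and PGE2 are known to restrain it.

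Depth and purity were examined before the genes. The stimulation libraries held 10470125 to 32849428 counts and the Blimp-1 libraries 13570188 to 76448945. A pair of libraries stood apart. Control replicate 2 had 76.8% of its counts on 7 genes, against at most 5.57% in the other libraries of its experiment, and its Col1a1 level was 2170 CPM (normalized counts scaled to 1e+06 per library). IL-33 stimulated replicate 3 was the shallowest of its experiment and held 27.2 CPM of the macrophage receptor gene Csf1r, against at most 2.17 in the other stimulated libraries. The members' tests are therefore given with and without them. The 10 ILC2 markers examined, among them Gata3, Il1rl1 and Il7r, had counts in every group. Their summed level was 7213 to 7820 CPM in unstimulated and 5114 to 7058 CPM in stimulated libraries, and 5092 to 5919 CPM in Control and 4431 to 4686 CPM in Blimp-1-deficient libraries, so the groups did not overlap in either experiment, and the part of this in the members' levels was not tested. Prdm1, which encodes Blimp-1, was lower in the Blimp-1-deficient libraries, at 14.6, 11.5 and 11.4 CPM against 75.2, 92.7 and 73.9 in Control (log2 fold change -2.68, adjusted p = 0.00441 by edgeR's quasi-likelihood test).

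Levels between genes were compared as TPM, the authors' length-adjusted unit. In unstimulated ILC2s, Cysltr1 was the most abundant of the 10 genes at 427 ± 41.6 TPM (SD, n = 4), followed by Alox5 at 351 ± 27.8 TPM and Ptgir at 189 ± 4.98 TPM. The ranges of these 3 genes did not overlap, and the other members followed with means of 12.7 TPM or less. Hpgds, Alox5ap and Ptgs2 averaged 12.7, 11.4 and 11.05 TPM, and neighbours in this order overlapped in their ranges. After IL-33, Cysltr1 and Ptgir were at 200 ± 32.3 and 188 ± 45.0 TPM with overlapping ranges, Ptgs2 followed at 54.6 ± 5.60 TPM, and Alox5 had moved to place 4 at 18.4 ± 5.33 TPM. In the Control cells Cysltr1 averaged 270 TPM, Ptgir 224, Alox5 102, Ptges 89.3 and Ptgs2 34.7, over replicates 1 and 3 alone, since in replicate 2 the 10 genes were at 6.35 TPM or less. The Blimp-1-deficient cells averaged 202 TPM of Ptgir, 190 of Cysltr1, 96.7 of Ptgs2 and 50.3 of Alox5, with Ptges at 13.3. Ltc4s, Ptgs1 and Ptgdr2 were the 3 lowest members in each of the 4 groups, and Ptgdr2 was the lowest of them. The TPM of the 2 experiments come from separate tables, and no test was made between them.

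The comparisons turn mainly on Alox5, Ptgs2 and Ptges, and the 250 bases before their start sites are shown for this reason, from RefSeq on GRCm38.p6. They read 5′ to 3′ on the strand of the gene, with every match to a searched motif in capitals. The RefSeq start of Ptges lies inside the longer gene span of the GENCODE annotation.
Alox5, chr6:116461179-116461428, minus strand: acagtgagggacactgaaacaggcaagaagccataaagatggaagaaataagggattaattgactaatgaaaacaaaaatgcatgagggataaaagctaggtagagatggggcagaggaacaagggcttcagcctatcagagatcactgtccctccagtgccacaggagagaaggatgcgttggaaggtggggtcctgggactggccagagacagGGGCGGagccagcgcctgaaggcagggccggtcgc
Ptgs2, chr1:150099781-150100030, plus strand: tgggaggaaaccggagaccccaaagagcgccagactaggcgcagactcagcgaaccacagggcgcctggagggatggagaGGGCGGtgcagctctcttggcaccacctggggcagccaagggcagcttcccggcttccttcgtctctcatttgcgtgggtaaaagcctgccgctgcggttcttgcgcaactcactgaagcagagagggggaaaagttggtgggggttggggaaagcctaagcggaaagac
Ptges, chr2:30903298-30903547, minus strand: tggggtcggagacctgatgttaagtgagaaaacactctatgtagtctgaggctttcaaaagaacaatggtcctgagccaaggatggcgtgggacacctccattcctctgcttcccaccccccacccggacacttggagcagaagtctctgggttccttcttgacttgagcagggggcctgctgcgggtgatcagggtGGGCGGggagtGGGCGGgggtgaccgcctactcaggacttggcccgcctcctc
The capitals are GC boxes (GGGCGG), 1 each in Alox5 and Ptgs2 and 2 in Ptges. RefSeq promoters of 300 bases, the last 50 of them after the start, were matched for 8 of the 10 members, all but Alox5ap and Cysltr1, and were searched on both strands. A GC box was found in 5 of the 8 (Alox5, Ptgs2, Ptges, Ptgdr2 and Ptgir), against 35.7% of all 32851 promoters of this length. After its start, Ptgs2 also held a CRE half-site (TGACG, in 20.8% of all promoters) at bases 14 to 18 on the opposite strand, overlapping an E-box (CACGTG, in 7.15%) at bases 17 to 22. The letters TATAAA (the TATA box), TGANTCA (AP-1), GAAAGT (the core of a Blimp-1 site) and the NF-kB motif, present in 13.6%, 7.81%, 14.3% and 4.51% of all promoters, were not among the letters of the 8 windows. A match of letters is a description of the sequence and not a binding site.

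**Figure D1:**
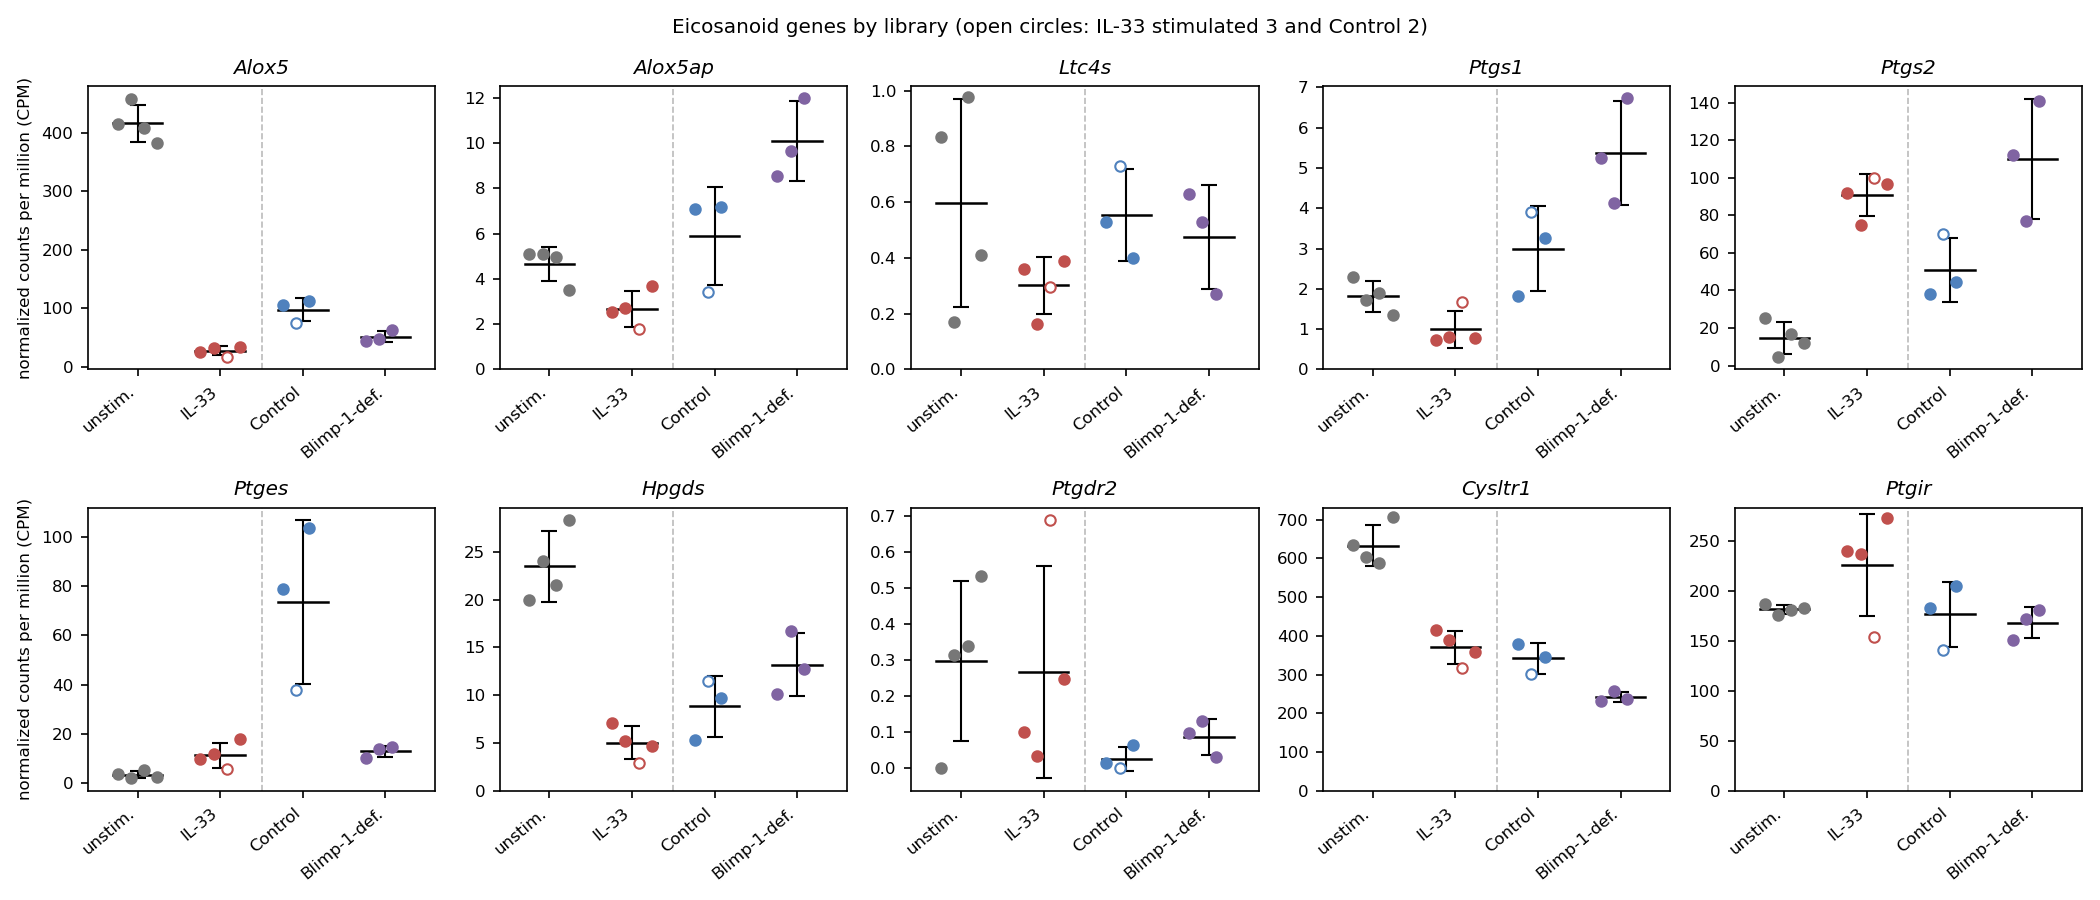
CPM (linear axis) of the 10 eicosanoid genes in each of the 14 libraries, with the mean and SD of each group as black bars. Open circles mark IL-33 stimulated replicate 3 and Control replicate 2, the dashed line separates the 2 experiments, which were normalized apart, and Alox5 falls from 382 to 458 CPM without stimulation to 17.2 to 33.9 CPM after IL-33.

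The question of the first comparison was how ILC2s change when IL-33 activates them. Since the time of the unstimulated cells in culture is uncertain, differences given as after IL-33 may include an effect of culture, which was not tested. Alox5 and Hpgds fell most among the 10 genes, Cysltr1 fell less, and Ptgs2 and Ptges rose. Differences between groups are given as log2 fold changes from edgeR's quasi-likelihood test, with p-values adjusted by the Benjamini-Hochberg method over all genes tested and a threshold of 0.05. Levels per library are given as CPM with edgeR's normalization factors, in the order of the replicate numbers. In these bulk samples, fewer cells of a type and less RNA per cell cannot be told apart. At this threshold 2 of the 10 genes were higher and 3 were lower after IL-33, while 16.2% of all genes tested were higher and 16.1% lower. DESeq2 called 2 higher and 5 lower, against 11.7% and 11.3% of the 28268 genes with a count. This base is wider than the 15466 genes that edgeR tested after its filter on low counts, so these backgrounds are not alike. By edgeR, 7 of the 10 had an unadjusted p below 0.05, against 43.9%. The libraries of the 2 groups did not overlap for 5 of the 10 genes, against 37.9% of all genes tested. The members were chosen with earlier results of these data known, so their shares are given as a description. In this comparison a large part of the transcriptome moved, and the shares were not tested against it. The median log2 fold change of the 10 members was -0.79, against 0.06 over all genes tested.

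Alox5 encodes 5-lipoxygenase, the first enzyme of leukotriene synthesis (chr6:116410077-116461178, minus strand, GRCm38). It measured 415, 458, 409 and 382 CPM in the unstimulated libraries and 25.3, 32.5, 17.2 and 33.9 CPM in the stimulated ones. Every unstimulated library was far above every stimulated library. The mean fell from 416 ± 31.3 to 27.2 ± 7.66 CPM (SD, n = 4 each), with a fitted log2 fold change of -3.92 ± 0.22 (SE), or 15.2-fold, and an adjusted p of 1.56e-05. It was -3.77 without IL-33 stimulated replicate 3. By rank of p-value Alox5 stood at place 78 of the 15466 genes tested. Alox5ap, which encodes the membrane protein that presents arachidonic acid to 5-lipoxygenase (chr5:149264767-149288153, plus strand), was expressed at a much lower level. It measured 5.10, 5.09, 4.96 and 3.52 CPM without stimulation and 2.53, 2.72, 1.77 and 3.68 CPM with IL-33. The highest stimulated library lay above the lowest unstimulated one. The log2 fold change of -0.80 ± 0.27 missed the threshold over all libraries (adjusted p = 0.0550) and was -0.65 with an adjusted p of 0.0197 without IL-33 stimulated replicate 3. It was past the threshold in 10 of the 18 alternatives run. Over all libraries these were DESeq2 (adjusted p = 0.0135), library size alone (0.0217), a mean count of at least 50 (0.0313) and the 3 limma fits on TPM (0.00508 to 0.0133), while it was not passed with RLE size factors (0.0507), no filter on low counts (0.152) or the replicate block (0.141). Ltc4s, the gene of leukotriene C4 synthase (chr11:50236461-50238616, minus strand), had 3 to 24 counts per library in this experiment. Its levels were 0.832, 0.172, 0.976 and 0.409 CPM without stimulation and 0.361, 0.162, 0.295 and 0.389 CPM with it. The groups overlapped, and the 95% interval of the log2 fold change, -2.31 to 0.39 over all libraries and -2.27 to 0.41 without IL-33 stimulated replicate 3, spanned 0, so no difference was detectable at this depth.

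Ptgs2 encodes cyclooxygenase-2, the inducible enzyme that commits arachidonic acid to prostaglandins (chr1:150100031-150108227, plus strand). It measured 25.3, 4.80, 16.9 and 12.1 CPM in the unstimulated libraries and 92.0, 74.6, 100.1 and 96.8 CPM after IL-33. The stimulated libraries lay close together and all above the unstimulated ones, which differed among themselves by several fold. The fitted rise was 6.16-fold, with a log2 fold change of 2.62 ± 0.44 and an adjusted p of 0.00282, and it was 2.59 (adjusted p = 0.000311) without IL-33 stimulated replicate 3. Ptges encodes the inducible microsomal PGE2 synthase that works downstream of cyclooxygenase-2 (chr2:30889471-30929863, minus strand). Its levels were 3.92, 2.17, 5.26 and 2.64 CPM without stimulation and 10.04, 12.0, 5.80 and 18.0 CPM with IL-33. The groups did not overlap, although the lowest stimulated library, replicate 3, was only slightly above the highest unstimulated one. The log2 fold change was 1.71 ± 0.41 with an adjusted p of 0.0140, and 1.95 without that library. The call was lost with the replicate block (1.70, adjusted p = 0.0636) and by limma on log2(TPM + 1) with no filter (1.11, adjusted p = 0.0690). Ptgs1, the gene of the constitutive cyclooxygenase-1 (chr2:36230426-36252272, plus strand), measured 2.29, 1.72, 1.91 and 1.35 CPM without stimulation and 0.722, 0.809, 1.67 and 0.777 CPM with it. IL-33 stimulated replicate 3 was the one stimulated library within the unstimulated range. Over all libraries the log2 fold change was -0.90 with an adjusted p of 0.0856, or 0.0377 by DESeq2, and without that library it was -1.23 with an adjusted p of 0.00236.

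Hpgds encodes the hematopoietic PGD2 synthase, which competes with Ptges for the same intermediate (chr6:65117293-65144908, minus strand). It measured 19.9, 24.0, 21.6 and 28.3 CPM without stimulation and 7.15, 5.27, 2.95 and 4.74 CPM after IL-33. No stimulated library reached the unstimulated range. The fitted fall was 4.64-fold, a log2 fold change of -2.21 ± 0.27 with an adjusted p of 0.000560, and 4.10-fold without IL-33 stimulated replicate 3. Ptges and Hpgds thus moved in opposite directions.

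Of the receptors, Cysltr1 encodes CysLT1, the high-affinity receptor of leukotriene D4 (chrX:106574346-106603679, minus strand). It measured 633, 604, 588 and 707 CPM in unstimulated libraries and 416, 390, 316 and 359 CPM after IL-33. The groups did not overlap, and Cysltr1 was still the most abundant member by mean TPM after its fall. The fitted fall was 1.71-fold, a log2 fold change of -0.77 ± 0.10 with an adjusted p of 0.000913, and it was -0.70 (adjusted p = 3.27e-05) without IL-33 stimulated replicate 3. Ptgir encodes the prostacyclin receptor (chr7:16906490-16910905, plus strand). It measured 187, 176, 181 and 183 CPM without stimulation and 240.1, 237, 154 and 273 CPM with IL-33. Replicates 1, 2 and 4 of the stimulated group were above the unstimulated libraries and replicate 3 was below them. Its log2 fold change was 0.32 ± 0.16 with an adjusted p of 0.154 over all libraries, and 0.46 ± 0.06 with an adjusted p of 0.000109 without replicate 3. On TPM over all libraries the sign turned, to -0.046. Ptgdr2 encodes CRTH2, a receptor of PGD2 (chr19:10937160-10942511, plus strand). It had 0 to 17 counts in any library of this experiment, at 0, 0.314, 0.339 and 0.535 CPM without stimulation and 0.0984, 0.0323, 0.688 and 0.247 CPM with it. The count of 0 in unstimulated replicate 1 allows up to 0.104 CPM, the level of 3 counts, a limit that covers counting error only. The interval of its log2 fold change ran from -2.89 to 2.05, and from -3.28 to 0.78 without IL-33 stimulated replicate 3.

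Without IL-33 stimulated replicate 3, 3 of the 10 genes were higher (Ptgs2, Ptges and Ptgir) and 5 were lower (Alox5, Alox5ap, Ptgs1, Hpgds and Cysltr1). In that fit 27.5% of all genes tested were higher and 29.7% lower. Markers of other cells were also at different levels in the 2 groups. The list of 11 mast cell and basophil genes, 6 with counts in the unstimulated group and 9 in the stimulated one, summed to 306 to 374 CPM in unstimulated and 131 to 186 CPM in stimulated libraries, with Kit as its most abundant gene at means of 317 and 162 CPM. Cpa3, the mast cell carboxypeptidase gene, was at 6.67 to 12.8 CPM without stimulation and at most 0.0707 CPM with it, while Cma1, Ms4a2, Prss34, Tpsab1 and Tpsb2 were at 0 in the unstimulated libraries and Ms4a2 and Prss34 in the stimulated ones. The list of 12 macrophage, monocyte and dendritic cell genes, 12 of 12 with counts in both groups, summed to 1797 to 2195 CPM without stimulation and 708 to 1011 CPM with it, most of it from Ccr2, whose means were 1853 and 766 CPM. The 6 T cell markers, 6 of 6 with counts, summed to 50.7 to 64.2 CPM and 14.2 to 27.7 CPM. The epithelial, endothelial and stromal list of 11 genes, 11 with counts in the unstimulated group and 10 in the stimulated one, where Scgb1a1 was at 0, summed to 447 to 705 CPM and 256 to 446 CPM. The part of these cells in the levels of Alox5, Hpgds and Cysltr1 was not tested.

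**Figure D2:**
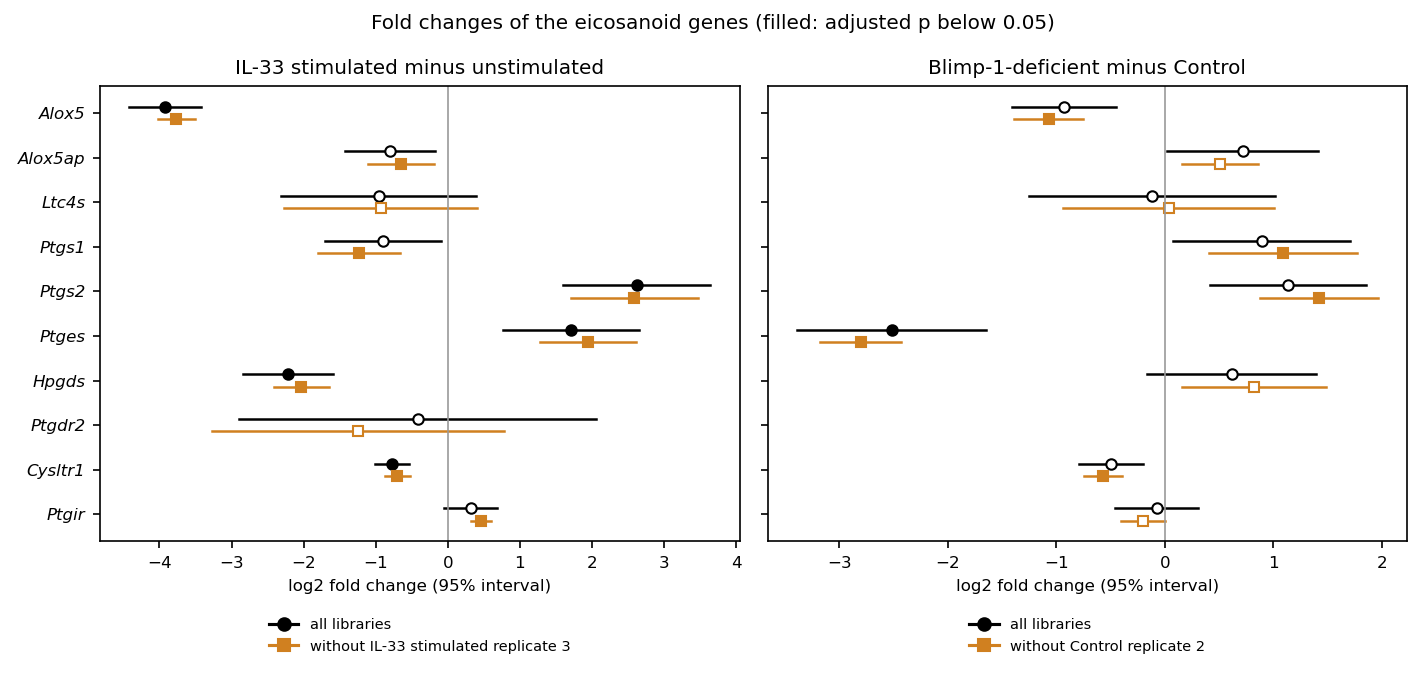
Log2 fold changes with 95% intervals of the 10 genes in both comparisons, over all libraries (circles) and without the library that stood apart (squares); filled symbols have an adjusted p below 0.05. Alox5 lies at -3.92 and Ptgs2 at 2.62 after IL-33, and Ptges lies at -2.52 in Blimp-1-deficient cells, where Ptgdr2 had too few counts to be tested.

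The second comparison asked what changes when Blimp-1 is missing from activated ILC2s. Ptges was lower in Blimp-1-deficient than in Control cells, and it was the one member past the threshold over all 6 libraries. At that threshold 0 of the 9 members tested were higher and 1 was lower, against 0.45% of all genes tested higher and 0.306% lower, while 6 members had an unadjusted p below 0.05, against 11.9% of all genes. DESeq2 called 1 member higher (Ptgs2) and 3 lower (Alox5, Ptges and Cysltr1). Over the 30196 genes with a count, a wider base than the 17335 that edgeR tested, it called 1.84% and 1.82%. The groups did not overlap for 6 of the 9, against 22.6% of all genes tested: Alox5ap, Ptgs1 and Ptgs2 were above Control in each library, and Alox5, Ptges and Cysltr1 were below. Ptgdr2 had too few counts for the test. Without Control replicate 2, 2 members were higher (Ptgs1 and Ptgs2) and 3 were lower (Alox5, Ptges and Cysltr1), against 8.25% and 5.72% of all genes tested. The median log2 fold change of the 9 members was -0.08 over all libraries, against -0.02 over all genes.

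Ptges measured 79.1, 38.0 and 104 CPM in Control and 10.4, 13.8 and 14.8 CPM in Blimp-1-deficient libraries. Each deficient library was below the lowest Control library, which was replicate 2. The mean was 13.0 ± 2.29 against 73.6 ± 33.2 CPM (SD, n = 3 each), and the fitted log2 fold change was -2.52 ± 0.36 with an adjusted p of 0.0474, or 5.72-fold lower. Without Control replicate 2 it was -2.80 ± 0.16 with an adjusted p of 0.000285. The call over all libraries was close to the threshold: leaving out Control replicate 1 or 3 or any Blimp-1-deficient library gave log2 fold changes of -2.61 to -2.19 with adjusted p-values of 0.149 to 0.286 in fits where at most 2 genes of the whole table were lower and at most 7 higher. It was also lost over all libraries with the replicate block (-2.42, adjusted p = 0.141), where 0 genes of the whole table passed. Library size alone (-2.23, adjusted p = 0.223) and the 3 limma fits on TPM (-0.84 to -0.64, adjusted p = 0.614 to 0.749) lost it too. The threshold was passed in 7 of the 17 alternatives run. Ptgs2, the partner of Ptges upstream, measured 38.2, 70.1 and 44.7 CPM in Control and 112, 76.8 and 141 CPM in deficient libraries. The groups did not overlap, and Control replicate 2 was the closest to the deficient range. Its log2 fold change was 1.13 ± 0.30 with an adjusted p of 0.199 over all libraries and 1.42 ± 0.23 with an adjusted p of 0.0101 without that library. Ptgs1 measured 1.83, 3.89 and 3.25 CPM in Control and 5.24, 4.14 and 6.72 CPM in deficient libraries. The log2 fold change was 0.89 (adjusted p = 0.370) over all libraries and 1.09 (adjusted p = 0.0496) without Control replicate 2, at the edge of the threshold, and 0.91 (adjusted p = 0.0701) by limma on TPM without it. Hpgds measured 5.33, 11.4 and 9.73 CPM in Control and 10.2, 16.7 and 12.7 CPM in deficient libraries. These ranges overlapped, and the test was not passed with Control replicate 2 (0.62, adjusted p = 0.542) or without it (0.82, adjusted p = 0.0985).

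Alox5 measured 106, 74.5 and 112 CPM in Control and 44.3, 47.4 and 62.8 CPM in Blimp-1-deficient libraries. The deficient libraries were all below Control. The log2 fold change was -0.93 ± 0.20 (adjusted p = 0.118) over all libraries and -1.07 ± 0.13 (adjusted p = 0.00425) without Control replicate 2. Alox5ap pointed the other way, at 7.10, 3.41 and 7.18 CPM in Control and 8.56, 9.67 and 12.0 CPM in deficient libraries. Its groups did not overlap, but edgeR's test was not passed, with a log2 fold change of 0.72 (adjusted p = 0.399) over all libraries and 0.51 (adjusted p = 0.0633) without Control replicate 2. Without that library it was past the threshold by DESeq2 (adjusted p = 0.0186) and by limma on TPM (0.0387). Ltc4s stayed low, at 0.530, 0.730 and 0.401 CPM in Control and 0.628, 0.528 and 0.269 CPM in deficient libraries. Its interval of the log2 fold change was -1.25 to 1.01 over all libraries and -0.94 to 1.01 without Control replicate 2, whose value rests on 3 counts.

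Cysltr1 measured 379.8, 301 and 345 CPM in Control and 232, 258 and 238 CPM in Blimp-1-deficient libraries. No deficient library reached the Control range. Its log2 fold change was -0.50 ± 0.12 (adjusted p = 0.164) over all libraries and -0.57 ± 0.08 (adjusted p = 0.00489) without Control replicate 2. Ptgir measured 184, 141 and 205 CPM in Control and 151, 172 and 181 CPM in deficient libraries. The groups overlapped, and the interval of its log2 fold change over all libraries, -0.46 to 0.31, spanned 0 (adjusted p = 0.913, and 0.168 without Control replicate 2). Ptgdr2 was at 0.0121, 0 and 0.0633 CPM in Control and 0.0966, 0.129 and 0.0310 CPM in deficient libraries, and the count of 0 in Control replicate 2 allows up to 0.730 CPM. That library's limit lies above the level of every other library of the experiment, so no difference was detectable.

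In limma's fit on log2(TPM + 1) of genes with a mean of at least 1 TPM over all 6 libraries, with Control replicate 2 included, the median over all genes of the log2 fold change was 1.28 and not near 0. The values there were 0.69 for Alox5 and 1.23 for Cysltr1, turned in sign and below that median, and -0.84 for Ptges. Markers of other cells were also examined in this experiment. The 11 epithelial, endothelial and stromal genes, 11 with counts in the deficient group and 10 in Control, where Scgb1a1 was at 0, summed to 482 to 679 CPM in deficient libraries and to 211, 319 and 3585 CPM in Control, the last in replicate 2. The macrophage, monocyte and dendritic cell list summed to 374 to 496 and 481 to 575 CPM, and the mast cell and basophil list to 167 to 213 and 145 to 152 CPM, most of it from Ccr2 (means of 353 and 433 CPM) and Kit (185 and 144 CPM). Of these lists, the mast cell and basophil sums did not overlap between the groups. Ms4a2 and Prss34 were at 0 in Control and Mcpt4 in both groups. The 5 neutrophil genes summed to 0.335 to 0.374 CPM in deficient and 0.518 to 1.22 CPM in Control libraries, which did not overlap either. Not every list examined is given here. The part of such cells in the levels of Ptges, Ptgs2 and Alox5 was not tested.

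The balance between branches was read within each library, as the ratio of the TPM of 2 genes, which does not depend on how libraries were scaled. The ratio of Alox5 to Ptgs2 was 18.3 to 106 in unstimulated libraries and 0.192 to 0.487 after IL-33, so the more abundant gene of the pair changed. In the Blimp-1 experiment this ratio was 1.19 to 3.10 in Control and 0.440 to 0.688 in deficient libraries. The ratio of Alox5 to Alox5ap was 28.2 to 37.5 without stimulation and 3.19 to 4.14 with IL-33, and 5.17 to 7.56 in Control against 1.69 to 1.81 in deficient libraries. None of these pairs of ranges overlapped, with Control replicate 2 and IL-33 stimulated replicate 3 included. Between the competing prostaglandin synthases, the ratio of Ptges to Hpgds was 0.148 to 0.399 without stimulation and 2.29 to 6.21 with IL-33, and it was 5.42 to 24.3 in Control and 1.35 to 1.90 in deficient libraries. The ratio of Ptges to Ptgs2 was 0.181 to 0.527 without stimulation and 0.0675 to 0.217 with it, ranges that overlapped. It was 0.631 to 2.70 in Control and 0.108 to 0.210 in deficient libraries, which did not overlap. Between the receptors, Cysltr1 to Ptgir was 2.11 to 2.51 without stimulation and 0.853 to 1.33 with IL-33, and 1.09 to 1.38 in Control against 0.851 to 0.998 in deficient libraries. These ratios combine values already described and were not tested.

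**Figure D3:**
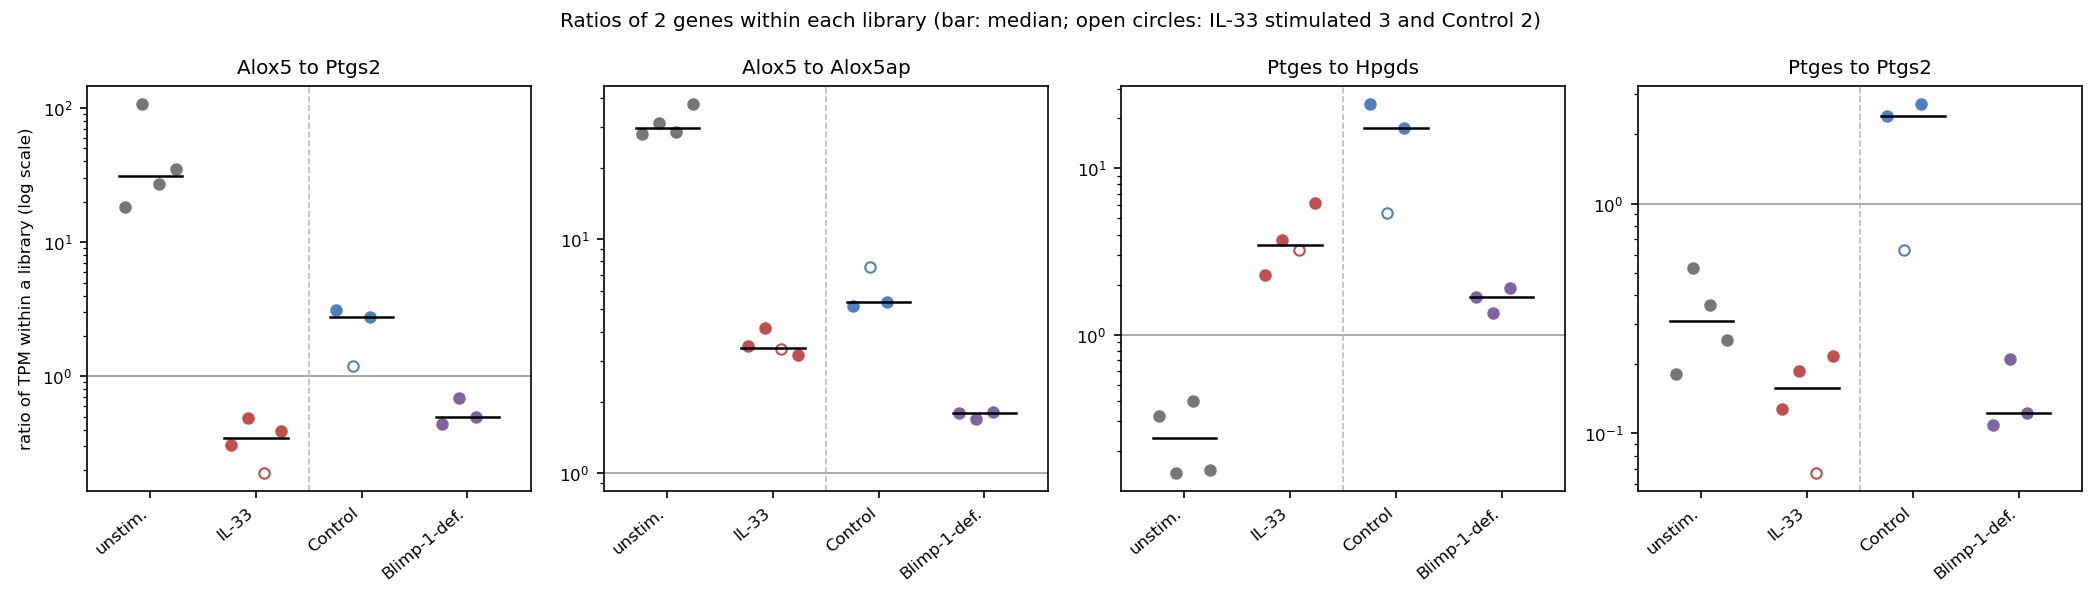
Ratios of TPM between 2 genes within each library (log axis), with the group median as a bar, for the 4 groups. Open circles mark IL-33 stimulated replicate 3 and Control replicate 2; the Alox5 to Ptgs2 ratio lies at 18.3 or more in unstimulated libraries and at 0.487 or less after IL-33, and Ptges to Ptgs2 is at most 0.210 in Blimp-1-deficient libraries.

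Besides the 10 genes, 53 other genes of the pathway were listed by role. In the stimulation experiment 34 of them were tested, 4 were higher and 12 lower, against 16.2% and 16.1% of all genes tested, and their median log2 fold change was -0.44, against 0.06 over all genes. Among phospholipases that release arachidonic acid, 2 of 5 tested were higher. They were Pla2g6, at 10.1 to 16.7 CPM without stimulation and 19.4 to 29.7 CPM with IL-33 (log2 fold change 0.92, adjusted p = 0.00778), and Pla2g12a (1.04, adjusted p = 0.00850). The one lipoxygenase tested besides Alox5, Alox8, was lower, at 3.86 to 7.02 CPM without stimulation and 0.590 to 2.33 CPM with IL-33 (-1.74, adjusted p = 0.0149). Of 8 genes for later steps of leukotriene synthesis and for export, 5 were lower and 1 was higher. Lta4h, the hydrolase that makes leukotriene B4, was lower (-0.65, adjusted p = 0.0158), as were Mgst2, Ggt1, Ggt5 and Dpep2, while Abcc1, the transporter that exports leukotriene C4, rose, with 55.6 to 64.5 CPM without stimulation and 174 to 317 CPM with it (2.12 ± 0.17, adjusted p = 9.08e-05). Of the 8 other prostanoid synthases, 0 were higher and 0 lower by edgeR's test, and 1, Ptgds, had an unadjusted p below 0.05. Ptgds, the second PGD2 synthase gene, was at 101.9 CPM in IL-33 stimulated replicate 3 and at 0.954 to 1.31 CPM in the other stimulated libraries, against 1.32 to 2.04 CPM without stimulation. Without that library its log2 fold change was -0.55 (adjusted p = 0.0781). Ptges3, a broadly expressed PGE2 synthase and cochaperone gene, was at 140 to 184 CPM without stimulation and 162 to 180 CPM with it (0.08, adjusted p = 0.490).

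Of the 5 prostanoid receptor genes tested besides the members, 4 were lower after IL-33 (Ptger1, Ptger3, Ptger4 and Tbxa2r) and 0 were higher, beside the 16.1% and 16.2% of all genes. Ptger4, which encodes the PGE2 receptor EP4, measured 108, 125, 112 and 102 CPM without stimulation and 41.9, 52.1, 36.4 and 48.0 CPM with IL-33. The groups were well separated, with a log2 fold change of -1.32 ± 0.12 and an adjusted p of 0.000157. Ltb4r1, which encodes the leukotriene B4 receptor BLT1, had the highest mean TPM among the pathway genes named here, at 781 to 847 TPM without stimulation and 243 to 430 TPM with it. It was lower after IL-33 (-0.82, adjusted p = 0.00468), whereas Cysltr2, the second cysteinyl leukotriene receptor gene, was at 51.6 to 73.1 CPM and 46.9 to 71.8 CPM (-0.11, adjusted p = 0.626). Among 4 genes of transport and breakdown that were tested, Abcc4, which exports prostaglandins, was higher (0.53, adjusted p = 0.0241) and Ptgr1, which inactivates leukotriene B4 and prostaglandins, was lower (-1.16, adjusted p = 0.0291). Without IL-33 stimulated replicate 3, 5 of the 34 were higher and 13 lower, against 27.5% and 29.7% of all genes, the additions being Akr1b3 and Mgst3. Without IL-33 stimulated replicate 1 the number past the threshold was 10 in all, against 25.7% of all genes. Mgst3, a glutathione transferase gene, was at 18.5 CPM in IL-33 stimulated replicate 3, at 1.84 to 2.36 CPM in the other stimulated ones and at 9.12 to 12.3 CPM without stimulation.

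In the Blimp-1 experiment 36 of the 53 genes were tested. By edgeR's test 0 were higher and 1 was lower, against 0.45% and 0.306% of all genes, with 8 at an unadjusted p below 0.05, against 11.9%. DESeq2 called 1 of 51 higher and 2 lower, against 1.84% and 1.82% of the 30196 genes with a count. The median log2 fold change was -0.14. The lower gene was Alox8, at 4.15, 4.14 and 5.14 CPM in Control and 1.45, 1.37 and 1.64 CPM in Blimp-1-deficient libraries (-1.60 ± 0.21, adjusted p = 0.0388). Control replicate 2 lay with the other Control libraries for this gene, and the difference was -1.63 without it. With any other single library left out, 0 genes of this list passed edgeR's test, with 4 to 7 at an unadjusted p below 0.05. In those fits at most 7 genes of the whole table were higher and at most 2 lower. There 1172 to 2028 of the 17653 to 18053 genes tested had an unadjusted p below 0.05. Without Control replicate 2, 37 genes were tested, 2 were higher (Dpep1 and Ptger4) and 6 lower, against 8.25% and 5.72% of all genes. Ptger4 measured 43.7, 29.7 and 40.4 CPM in Control and 70.2, 73.3 and 71.1 CPM in deficient libraries. Its log2 fold change was 0.90 (adjusted p = 0.0551) over all libraries and 0.78 ± 0.06 (adjusted p = 0.00128) without that library. Of 7 prostanoid synthases tested, 4 were lower there, Ptges2 and also Cbr1 (-0.57, adjusted p = 0.0174), Akr1b3 (-0.34, adjusted p = 0.0372) and Ptges3 (-0.24, adjusted p = 0.0286), and Alox8 and Ptger3 were the other lower genes. Abcc1, Lta4h, Ltb4r1 and Pla2g6 had log2 fold changes of 0.07, 0.00, -0.17 and -0.09 over all libraries, with adjusted p-values of 0.646 or more.

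**Figure D4:**
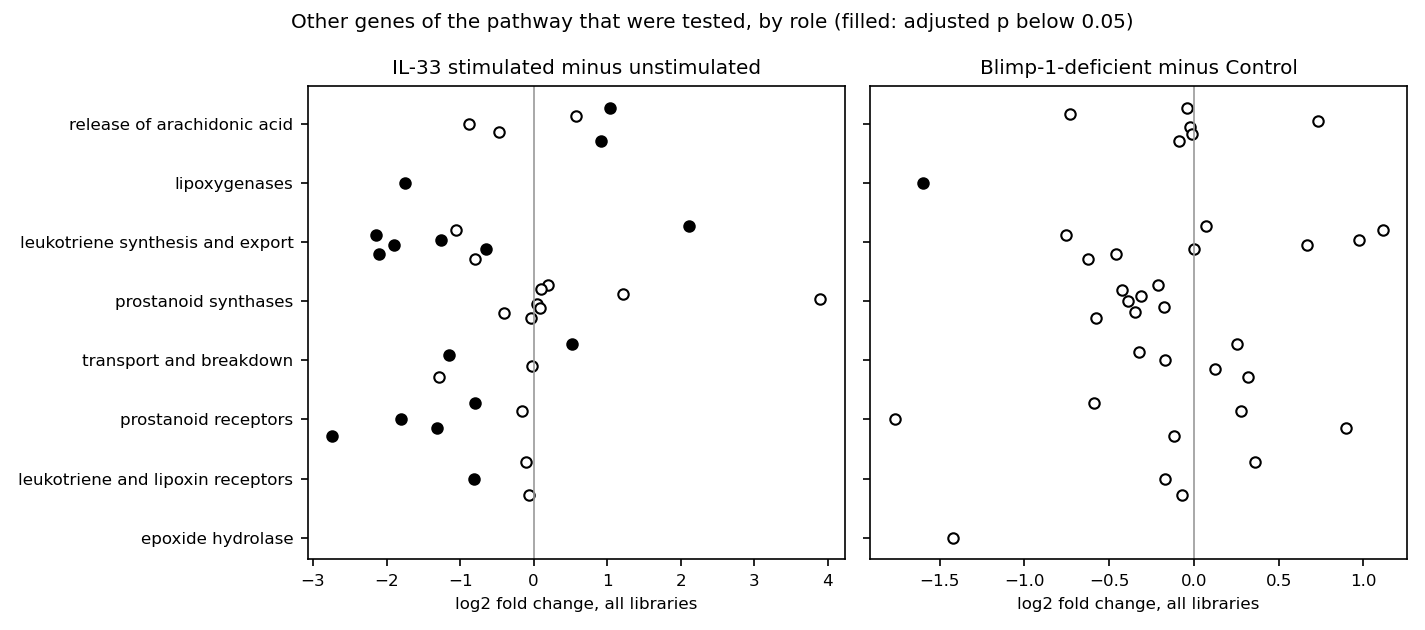
Log2 fold changes over all libraries of the other pathway genes that were tested, grouped by role, 34 of 53 after IL-33 (left) and 36 of 53 in Blimp-1-deficient cells (right); each circle is 1 gene and filled circles have an adjusted p below 0.05. After IL-33, 12 of the filled circles lie below 0 and 4 above, and in Blimp-1-deficient cells the one filled circle is Alox8 at -1.60.

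The genes whose levels ran most like those of the members past a threshold were found by Pearson's r of log2(CPM + 1) over the 14 libraries, among 10626 genes with a mean of at least 5 CPM. For Alox5 they were Tmem64 (r = 0.995), Tspan14 (0.987) and Rcbtb2 (0.982). For Ptgs2 they were Whrn (0.931), Edil3 (0.925) and Egfr (0.920), the last the receptor of epidermal growth factor. For Ptges they were P2ry2 (0.979), a receptor of extracellular nucleotides, Fam217b (0.962) and Dusp16 (0.927), a phosphatase of MAP kinases. For Hpgds they were Iqgap3 (0.959), Nlrc3 (0.951) and Dnah8 (0.950), and for Cysltr1 Ddx28 (0.977), Synrg (0.974) and Cdc42se2 (0.974). The 14 points fall into 4 groups and 2 experiments, which were normalized apart, so a difference in scale between the experiments enters r. Libraries and depth are also shared across genes, so these values are a description. Over the 12 libraries without the pair that stood apart, r for these genes was 0.920 to 0.994.

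Some members share annotated bases with a gene on the opposite strand. Such bases make up 39.0% of the exon bases of Ptgdr2 (with Ccdc86), 26.4% of Ltc4s (with Gm26542), 13.3% of Alox5ap (with Gm19719) and 3.81% of Ptgs1 (with Gm43621). The strand setting of the counting was not given in the sources used here, so reads from the partner cannot be told apart in these 4 genes. Alox5, Ptgs2, Ptges, Hpgds, Cysltr1 and Ptgir share none, and no stretch of 75 bases, the read length, in any of the 10 genes was found in the transcripts of another gene.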

How the data were processed

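Per the study's methods, the authors used cutadapt for trimming of 75-base paired-end reads, HISAT2 for alignment (GRCm38) and Subread for counting, and the submitters' processing notes also list Bowtie2 and DESeq2. They deposited raw counts and TPM per library for each experiment, and 0 columns of values were left unmapped. The members and lists were chosen with earlier results of these data known. Counts were tested with edgeR 4.0.16 in R 4.3.3 (TMM, filterByExpr defaults, quasi-likelihood, two-sided, Benjamini-Hochberg over all genes tested, threshold 0.05), each experiment apart, with no term for replicate. SE is the log2 fold change over the square root of F, and intervals are 95%. CPM are counts scaled with the TMM factors, without a prior count. DESeq2 1.42.0, limma 3.58.1 on log2(TPM + 1) and log2(TPM + 0.1), other scalings and filters, a replicate block and leaving out each library served as alternatives. The edgeR step was tested on simulated data. Other pathway genes are named where they passed the threshold in either comparison over all libraries with a mean of at least 5 TPM in a group, or reached 20 TPM; Ptger1, Ptger3, Tbxa2r, Mgst2, Ggt1, Ggt5, Dpep1, Dpep2 and Ptges2 were named after their values were seen. Figures were drawn with matplotlib 3.10.9. P-values measure the spread between libraries, which the series' design text takes from individual mice; the paper's legends, covering other assays too, speak of sorting samples from 2 pooled animals.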

Additional observations from a re-analysis of the deposited data

Results flagged for a closer look

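Within each group of 4 libraries, the highest and the lowest CPM of each member were compared with the rest by Dixon's ratio, the gap to the nearest library over the whole range, with the usual 95% critical value for 4 values. The 20 groups examined gave 2 values beyond it, and chance gives about 1 in 20. Alox5ap in unstimulated replicate 4 was lowest at 3.52 CPM, with the other unstimulated libraries at 4.96 to 5.10 CPM and a ratio of 0.916. Ptgs1 in IL-33 stimulated replicate 3 was highest at 1.67 CPM, with the other stimulated libraries at 0.722 to 0.809 CPM and a ratio of 0.909. Groups of 3 libraries were not examined in this way.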

How the results depend on the processing

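Alox5, Ptgs2, Hpgds and Cysltr1 kept direction and call after IL-33 in all 18 alternatives run, and Ptges in 16, its call being lost with the replicate block (adjusted p = 0.0636) and by limma without a filter (0.0690). Members past the threshold after IL-33 numbered 5, and 5 to 8 with 1 library left out, the 8 without IL-33 stimulated replicate 3, where DESeq2 also gave 8. In that DESeq2 fit 4583 of all 27942 genes were higher and 4297 lower. Other pathway genes numbered 16, and 10 to 18 with 1 library left out, the 10 without IL-33 stimulated replicate 1. In the Blimp-1 comparison the member count of 1 became 4 by DESeq2, 0 with library size alone, 0 in each of the 3 limma fits on TPM, and 0 to 5 with 1 library left out. Without Control replicate 2 it was 5 by edgeR, 6 by DESeq2 and 5 by limma on TPM. Over all genes these 3 fits called 1483 higher and 1027 lower of 17968, 1932 and 1632 of 29886, and 1076 and 575 of 14389. Over all 6 libraries, library size alone called 98 higher and 73 lower of 17335 genes, and the limma fits at most 1 each way. The pathway count of 1 became 3 by DESeq2, 3 with a mean count of at least 50, 0 with no filter on low counts, 0 with library size alone, 0 in the 3 limma fits, and 0 to 8 with 1 library left out. Without Control replicate 2 it was 8 by edgeR, 11 by DESeq2 and 7 by limma. Over all genes, a mean count of at least 50 gave 149 higher and 107 lower of 13458, and no filter gave 56 and 38 of 30196. The cause of these moves was not tested.

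Signs that turned were those of small or low-count differences, or of fits on TPM that include Control replicate 2. Ptgir after IL-33 was -0.046, -0.047 and -0.046 in the limma fits on log2(TPM + 1), log2(TPM + 0.1) and log2(TPM + 1) with no filter, and Ptgdr2 ran from -1.25 to 0.12 with 1 library left out. In the Blimp-1 comparison, library size alone moved the median of all genes to 0.45, with Ltc4s at 0.36 and Ptgir at 0.32, both below it. The limma fits on log2(TPM + 1), with and without the filter, gave 0.69 for Alox5, 0.49 for Ltc4s, 1.23 for Cysltr1 and 1.63 for Ptgir, and those on log2(TPM + 0.1) gave 0.85, 1.15, 1.29 and 1.72, against medians of 1.28 and 1.69 over all genes at or above the filter. Ltc4s ran from -0.38 to 0.15 and Ptgir from -0.20 to 0.050 with 1 library left out, and without Control replicate 2 Ltc4s was 0.022 by DESeq2 and 0.040 by limma.

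By the design text each library comes from its own mouse, so replicate numbers do not pair the libraries by mouse. The correlations of same-numbered deviations were -0.14 to 0.28 after IL-33 and -0.13 to 0.12 between Control and deficient libraries. Those of differently numbered libraries were -0.28 to 0.26 and -0.21 to 0.18. Best matches fell on the own number for 3 of 4 and 1 of 3 libraries. Whether same-numbered libraries shared a step of preparation was not tested. With the replicate block, 4 members and 12 other pathway genes passed after IL-33, where 1802 of all 15466 genes tested were higher and 1900 lower. In the Blimp-1 comparison 0 and 0 passed, as did 0 of all 17335 genes tested. There 7 members had an unadjusted p below 0.05, against 1380 of all genes, and Ptges was at -2.42 with an adjusted p of 0.141. Ltc4s and Ptgdr2, at 0 to 24 counts in the stimulation libraries, are limited by depth. In Control replicate 2 so are Ltc4s, Ptgdr2, Alox5ap and Ptgs1, at 3, 0, 14 and 16 counts, whereas Cysltr1 had 1236.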
